A study of Sus scrofa with 20 samples.

Results

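Longissimus muscle of Lantang (LT) pigs, an obese Chinese breed with slow muscle growth, was compared between the finishing ages of 120 and 180 days post natum (dpn) and the growing ages of 28 and 90 dpn. These 4 libraries, 2 a side, are 4 of the 20 libraries of a series that also covers Landrace (LR), a lean breed, and prenatal stages in days post coitus (dpc). They were chosen by breed and age. Each library was made from equal amounts of RNA of 3 pigs, pooled before sequencing, so each age was measured once. The 2 ages of a side stand in for replicates, and the spread within a side holds differences of age, of animals and of library preparation together. Within a breed, the purebred litters had common sires. No agent or genetic change was applied to the animals, and the boars were castrated as piglets, per the methods of the study. The LR libraries of 120 and 180 dpn were left out because their tags differ in enzyme digestion.

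The longissimus is a fast, glycolytic back muscle of the pig. After birth its fibres no longer multiply to any extent but thicken and mature, proteins of the fetal contractile apparatus give way to adult ones, and with age fat cells settle between the fibres. The comparison asks which transcripts mark the later, fattening phase of postnatal growth in the obese breed.

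In digital gene expression (DGE) profiling, the enzyme NlaIII cuts cDNA at CATG, and the cut nearest to the poly(A) tail gives a tag of 21 bases, CATG and the 17 bases after it. A tag is read as standing for a transcript, and its count for the abundance of that transcript. Per the study, a tag can also match several genes, an antisense strand or a further CATG site. A tag therefore need not stand for a single transcript. Levels are given as TPM, copies of a tag per 1000000 tags of its library. Tags were not matched to genes here, so they are named by their sequence, and the tissue label was not checked against marker genes. In whole muscle, fewer cells of a type and less RNA per cell cannot be told apart.

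The growing libraries held 5127896 tags (28 dpn) and 3953120 tags (90 dpn), and the finishing libraries 3282841 (120 dpn) and 2932964 (180 dpn). A level of 3 counts, taken as the floor of detection, stood for 0.585 to 1.02 TPM in them. The floors cover counting error only. Tags seen 2 to 4 times carried 3.55% to 8.04% of a library, with the highest share at 90 dpn. The 100 most abundant tags carried 38.4% to 43.2%, and 2.14% to 2.83% of tags held a further CATG.

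Tags without overlap between the ages were common in both directions, but no tag passed the test. Of 28014 tested tags, 11145 (39.8%) had both finishing libraries on the same side of both growing libraries. Of these, 6348 (22.7%) were higher in finishing and 4797 (17.1%) in growing. With only 2 libraries a side, a large share of tags lacks overlap even where age has no effect. These shares alone therefore do not show a difference of age. With a ratio of side means of at least 2 there were 3400 (12.1%) in each direction. With a ratio of at least 4 there were 509 (1.82%) higher in finishing and 1501 (5.36%) higher in growing. The filter on low counts asked for 2.76 CPM in 2 libraries, and 360 of the 509 and 1109 of the 1501 reached it only in the libraries where they were high. Such tags had to differ between the sides to be tested, so the 2 counts are no evidence of a direction. edgeR's quasi-likelihood test with Benjamini-Hochberg adjustment called 0 tags (0.0%), with a smallest adjusted p of 0.203. At an unadjusted p below 0.05 it gave 2412 tags (8.61%), 483 higher in finishing (1.72%) and 1929 higher in growing (6.89%). DESeq2 called 413 (1.47%), 29 higher in finishing (0.104%) and 384 higher in growing (1.37%).

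The outcome of the test depended on the side from which a library was left out. Without a growing library edgeR called far more tags than without a finishing one. The filter, applied anew, left 34980 tested tags without 28 dpn, 35376 without 90 dpn, 42928 without 120 dpn and 41564 without 180 dpn. The counts called are no evidence of a difference, because a side with a single library has no spread of its own. In these fits the age left alone on its side was assumed to vary like the other side. The median log2 fold change over all tested tags was -0.03 with TMM scaling and 0.10 when libraries were scaled by their totals.

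**Figure D1:**
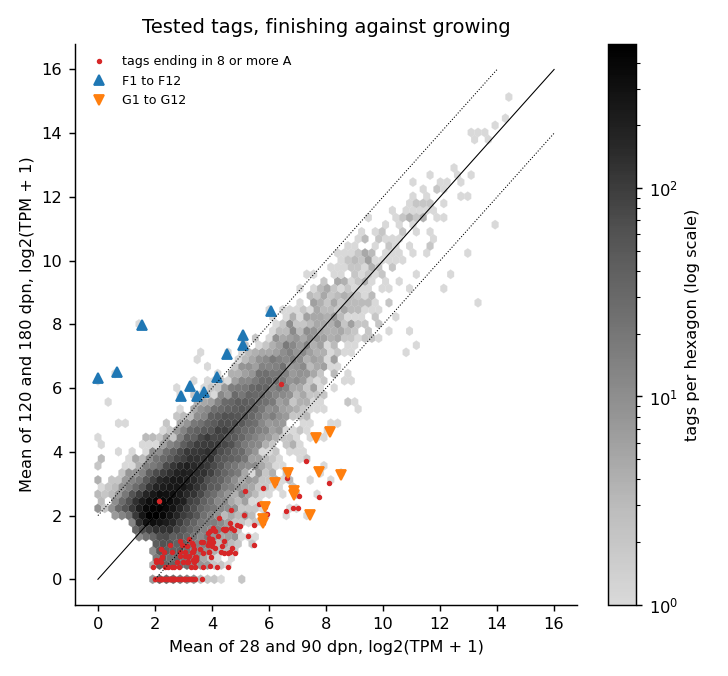
Mean level of each of the 28014 tested tags in the growing libraries (28 and 90 dpn, x axis) and in the finishing libraries (120 and 180 dpn, y axis), both as log2(TPM + 1). Grey hexagons give the number of tags, red points are tags that end in 8 or more A, blue and orange triangles are the tags F1 to F12 and G1 to G12, the solid line is equality and the dotted lines mark a difference of 2 on this scale, a ratio of 4. Nearly all red points lie below the solid line, on the growing side, where 117 of the 144 reached the low-count filter only in growing, and the F tags lie above it.

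The 2 finishing libraries resembled each other more than the 2 growing libraries did, with 1 library an age. Across the 282962 tags of the 4 libraries, Pearson's r of log2(TPM + 1) was 0.866 between 120 and 180 dpn and 0.736 between 28 and 90 dpn. The 4 pairs that crossed the sides had a mean r of 0.786 (SD 0.0165, 0.765 to 0.802), above the r of the growing pair. These r describe tags that share their libraries and depth, and tags are not replicates. The 90 dpn library held 187623 distinct tags, against 128142, 97813 and 106029 at 28, 120 and 180 dpn. Its r with LT at 2 dpn was 0.695, against 0.837, 0.799 and 0.814 for 28, 120 and 180 dpn. The part of this library in the r of the growing pair was not tested. Of the tested tags, 11.2% differed at least 4-fold on the log2(TPM + 1) scale between 28 and 90 dpn, and 1.88% between 120 and 180 dpn. Between 90 and 120 dpn, on different sides, 5.35% did.

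The 28 dpn library stood apart most often. It held 278 tested tags (0.992%) at least 4-fold above each of the other 3 libraries and 1452 (5.18%) at least 4-fold below. For the 90 dpn library there were 82 above (0.293%) and 305 below (1.09%). For that of 120 dpn it was 5 (0.0178%) and 74 (0.264%), and for that of 180 dpn 37 (0.132%) and 66 (0.236%). Levels under 3 counts were set to 3 counts, which is the lowest TPM in the deepest library, that of 28 dpn. Tags could thus more readily be counted as below in that library. The 278 tags high at 28 dpn carried 9.72% of that library.

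The tags named F and G below were taken from those that did not overlap, with a ratio of at least 2 and a mean of at least 50 TPM on the higher side. In each direction the 12 with the smallest unadjusted p were taken. None of them passed edgeR's test, and their lack of overlap comes from this choice. The candidates numbered 293 higher in finishing and 271 higher in growing, of which 11 and 2 were not named because a tag 1 base away was at least 10 times as abundant.

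The 12 tags higher in finishing that this choice gave are shown first. Capitals mark the CATG site.
F1: CATGcaagtatccgcgcccca
F2: CATGagttacggttttaattg
F3: CATGctcgatgtggagaggtc
F4: CATGtctgcccaaagcatgtc
F5: CATGtcctccatgaaagagtc
F6: CATGccctcacctccgtgcac
F7: CATGctgcttatcaccaacaa
F8: CATGttggcccctcttatttc
F9: CATGtgatctctttgaccccc
F10: CATGctcgatgtggagaggac
F11: CATGtcgaaggaagagaaatc
F12: CATGacctgggaccctcctct

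The 12 tags higher in growing follow. Capitals mark the CATG site and a final run of 4 or more A.
G1: CATGtggaaatgacccAAAAA
G2: CATGtgattattccataataa
G3: CATGtttggttttccaaaaga
G4: CATGtgtgtggcAAAAAAAAA
G5: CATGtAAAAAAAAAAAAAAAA
G6: CATGcgggagattttttAAAA
G7: CATGttttggatAAAAAAAAA
G8: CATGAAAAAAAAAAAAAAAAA
G9: CATGtgataggtatttataga
G10: CATGagctaatccagaaataa
G11: CATGattcttaacccactcaa
G12: CATGaactaacatttAAAAAA

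The lists differ in composition, which their choice did not use directly. Of the G tags, 7 of 12 end in 4 or more A, and G5 and G8 are A almost throughout. Of the F tags, 0 of 12 do. The median share of G and C in the 17 bases was 52.9% in the F tags and 26.5% in the G tags. Over all tested tags, 1.72% end in 4 or more A, and the median share of G and C was 41.2%. Tags with long A ends were more abundant in the growing libraries as a class, as given below. The composition is thus not an independent trait of the lists.

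F1 had the clearest presence in finishing. It was at 0 TPM at 28 and 90 dpn, 74.0 TPM at 120 dpn and 82.5 TPM at 180 dpn. Against a floor of 3 counts in each growing library, its mean was at least 116-fold higher in finishing. F2 was at 0.390, 0.759, 76.8 and 102 TPM at 28, 90, 120 and 180 dpn, and F3 at 0.585, 3.29, 212 and 289 TPM. F3 was 129-fold higher in the finishing means. F2 had 2 and 3 counts in growing, no more than the floor, and by pooled counts its ratio was 161 with an exact 95% interval of 68.4 to 497, which covers counting error only. The adjusted p (edgeR) was 0.203 for F1 and F2 and 0.221 for F3. DESeq2 gave adjusted p-values of 1.5e-07, 3.69e-10 and 1.06e-12. F1 and F2 reached the filter on low counts only in the finishing libraries, so they had to differ to be tested. F1 to F3 were also chosen by lack of overlap and smallest p. The p-values of either test are thus no evidence of a difference for them.

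Each of these 3 tags has a neighbour that differs from it by a single base and was abundant in at least 1 growing library. They are shown in pairs, with the differing base in capitals, since the pair behaves unlike the tag alone.
F1: catgcaagtatccgcgccccA
neighbour of F1: catgcaagtatccgcgccccG
F2: catgagttacggttttaatTg
neighbour of F2: catgagttacggttttaatCg
F3: catgctCgatgtggagaggtc
neighbour of F3: catgctTgatgtggagaggtc

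Counting positions from 1 at the C of CATG, with the base of the F tag first, the differences are A21G, T20C and C7T. The neighbour of F1 was at 289, 208, 137 and 158 TPM at 28, 90, 120 and 180 dpn, and that of F2 at 623, 310, 339 and 195 TPM. The neighbour of F3 was at 6.63, 912, 507 and 3.41 TPM, in order of age. When every tag 1 base away was added, the F1 sums were 290, 208, 211 and 241 TPM, the F2 sums 625, 311, 416 and 299 TPM, and the F3 sums 23.6, 934, 775 and 409 TPM. The sides then overlapped for all 3. The relation between these tags and their neighbours was not tested.

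F10 is also 1 base from F3, with the difference A20T. It was at 16.4 and 18.2 TPM in the growing libraries and at 52.4 and 110 TPM at 120 and 180 dpn. F8 has the neighbour catgttggccccCcttatttc (T13C), which was at 12.9, 54.4, 148 and 75.0 TPM at 28, 90, 120 and 180 dpn, where F8 itself was at 8.97, 15.2, 65.2 and 49.4 TPM. Both members of the F8 pair were thus higher in each finishing library than in each growing library. With neighbours added, 9 of 12 F tags and 12 of 12 G tags kept sides that did not overlap. All were chosen for lack of overlap, so these counts are no evidence of a difference. The F10 sums of 17.0, 24.8, 265 and 404 TPM, in order of age, hold the counts of F3. G5 and G8 are 1 base apart, so their sums share counts.

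The other F tags were present in every library, at lower level in growing muscle. F4 was at 7.02 and 9.61 TPM at 28 and 90 dpn and at 58.8 and 73.3 TPM at 120 and 180 dpn, 7.94-fold higher in finishing. Its log2 fold change was 2.85 (SE 0.67) with an adjusted p of 0.227 by edgeR. F5 was at 20.9, 23.5, 124 and 141 TPM and F6 at 25.5, 40.7, 173 and 233 TPM, in order of age. F9 was the most abundant of them, at 73.1 and 60.5 TPM in growing and 325 and 358 TPM in finishing, 5.12-fold higher. In F4, F5, F6 and F9 the ages of a side lay closer to each other than to either age of the other side.

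F7 and F12 owed their difference mostly to 180 dpn. F7 was at 5.27, 7.84, 18.6 and 86.3 TPM and F12 at 33.0, 32.9, 96.6 and 229 TPM, in order of age. F11 was at 4.88, 15.4, 58.2 and 47.1 TPM. In 10 of 12 F tags the level at 180 dpn was above that at 120 dpn. The adjusted p of the 12 tags ran from 0.203 to 0.374 (edgeR). DESeq2 called 7 of them, against 29 (0.104%) of all tested tags in this direction. The F tags were chosen by smallest p in the same libraries, so these calls are no further evidence.

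Among the tags higher in growing, G2 had the highest level, 557 TPM at 28 dpn and 175 TPM at 90 dpn, against 7.92 TPM at 120 dpn and 9.55 TPM at 180 dpn. It was 41.9-fold higher in the growing means. G1 was at 241, 105, 3.05 and 3.07 TPM in order of age, 56.6-fold higher in growing. The log2 fold changes were -5.52 (SE 0.94) for G2 and -5.94 (SE 0.88) for G1, with an adjusted p of 0.221 by edgeR for both. In G1 and G2 the finishing libraries were nearly equal, and the level at 28 dpn was well above that at 90 dpn.

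G3 was at 141, 91.8, 7.62 and 4.09 TPM, in order of age, and G11 at 368, 191, 24.7 and 22.8 TPM. G10 was nearly equal in the growing libraries, at 197 and 207 TPM, and at 19.2 and 21.8 TPM in finishing. In 11 of 12 G tags the 28 dpn library was above that of 90 dpn, and G10 is the exception. G9 was at 88.1, 20.2, 3.05 and 2.39 TPM. Its neighbour catgtgataggtatttCtaga (A17C) was at 76.6, 36.4, 15.5 and 7.16 TPM, the same order of ages.

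All 12 G tags end in at least 1 A, and the 7 with a run of 4 or more A include G6 and G12. G6 was at 321, 106, 10.7 and 7.84 TPM, in order of age, and G12 at 196, 36.2, 6.09 and 4.43 TPM. G8, which is CATG and 17 A, was at 118, 83.5, 10.4 and 7.84 TPM, and G5 at 77.0, 38.5, 4.26 and 3.41 TPM. G4 was at 80.9, 28.6, 3.05 and 1.70 TPM and G7 at 74.9, 72.1, 6.09 and 8.18 TPM. Every G tag had an adjusted p of 0.221 by edgeR. DESeq2 called 12 of 12, against 384 (1.37%) of all tested tags in this direction. The G tags were chosen by smallest p in the same libraries, so the DESeq2 calls are no further evidence.

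**Figure D2:**
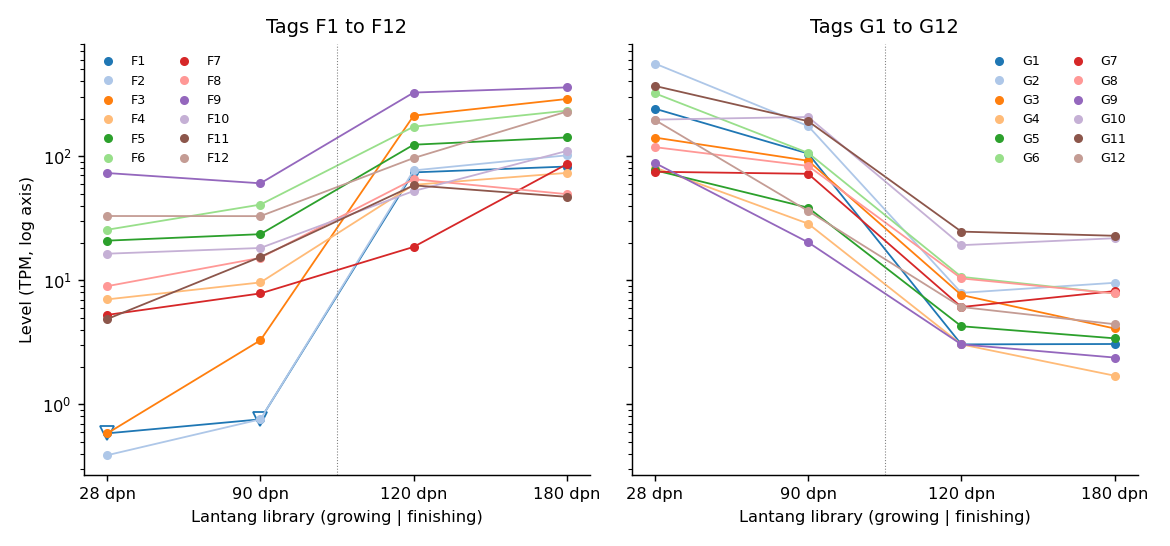
Level in TPM, on a log axis, of the tags F1 to F12 (left) and G1 to G12 (right) in the Lantang libraries of 28, 90, 120 and 180 dpn. Each point is 1 library of 3 pooled pigs, lines join the points of a tag, open triangles mark a level of 0 drawn at 3 counts (F1), and the dotted line parts growing from finishing. F1 to F3 start near or under the floor, the other F tags between 4.88 and 73.1 TPM at 28 dpn, and all G tags are at 24.7 TPM or less in finishing.

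In libraries outside the comparison, F9 was at 217 TPM in LT at 2 dpn, and at 128 and 356 TPM in LR at 28 and 90 dpn, within its range over the 4 LT libraries. In LT at 2 dpn, F6 was at 197 TPM and F10 at 60.9 TPM, each between its LT levels at 120 and 180 dpn. The other F tags were below both of theirs. In LR at 2 dpn, F4, F6 and F12 were at 71.9, 195 and 108 TPM, between their LT finishing levels, and F10 was above its own at 234 TPM. The other F tags were below theirs. F1 was at 13.6 TPM in LT at 2 dpn and at 0 TPM in all 5 prenatal LT libraries and in LR at 2, 28 and 90 dpn. F2 was at 0 TPM in those 3 LR libraries, and F8 too, although its neighbour was at 127 and 221 TPM in LR at 28 and 90 dpn. Before birth the F tags differed widely. F3 reached 464 TPM, F12 301 TPM and F11 75.3 TPM in a prenatal LT library, above their highest level in the 4 libraries, and F2 reached 51.5 TPM. The neighbour of F1 was at 709 and 269 TPM in LR at 28 and 90 dpn.

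G1 reached 2143 TPM and G3 1282 TPM in a prenatal LT library, far above their postnatal levels. In LT at 2 dpn, between the fetal and the growing ages, G1 was at 46.2 TPM and G3 at 12.0 TPM. G2 was at 40.3 TPM in LT at 2 dpn, 8.80 to 61.2 TPM in the prenatal LT libraries, and 172 and 30.6 TPM in LR at 28 and 90 dpn. The level of these 3 tags thus did not run in 1 direction with age. G9 was at 0 TPM in LR at 2, 28 and 90 dpn, and its neighbour at 60.6, 48.8 and 30.1 TPM. Whether such tags differ between the breeds was not tested.

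Tags that end in 8 or more A were, as a class, more abundant in the growing than in the finishing libraries. An mRNA whose last CATG lies next to the poly(A) tail gives a tag that runs into A. Over all tags of a library, those ending in 8 or more A summed to 6209, 2520, 366 and 228 TPM, in order of age. The other 16 libraries ran from 232 TPM (LT at 91 dpc) to 11724 TPM (LR at 180 dpn) without an order by age. In LR it was 2621 TPM at 28 dpn and 358 TPM at 90 dpn. In LT at 2 dpn it was 278 TPM, close to the finishing libraries. These sums hold every tag of a library, without a filter.

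Of the tested tags, 483 (1.72%) end in 4 or more A. They made up 9 of the 3400 tags higher in finishing at a ratio of at least 2 and 292 of the 3400 higher in growing. Of the 144 that end in 8 or more A, 117 reached the filter only in the growing libraries and 0 only in the finishing ones, so that counts of their direction follow from the filter. The same filter acted on tags with shorter ends. Among those that end in 2 or 3 A, 39.1% were higher in growing and 5.92% in finishing. Among those that end in 1 A it was 19.6% and 11.05%, and among tags that do not end in A 7.02% and 13.1%. How many of these reached the filter on 1 side only was not counted by class, so these shares are no evidence of a direction. The part of these tags in the difference between the sides was not tested.

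**Figure D3:**
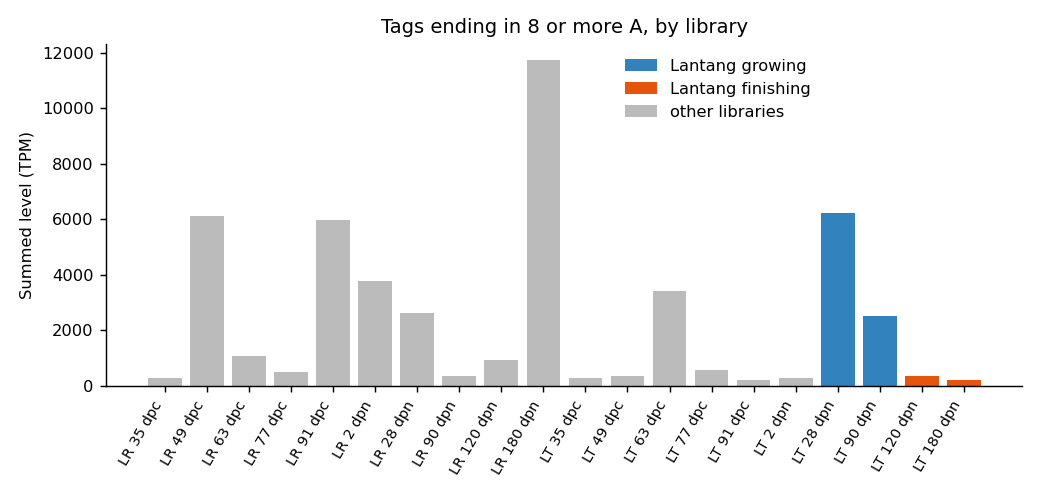
Summed level, in TPM, of all tags that end in 8 or more A in each of the 20 libraries, with the growing LT libraries in blue, the finishing ones in orange and the others in grey. The growing libraries of 6209 and 2520 TPM stand above the finishing ones of 366 and 228 TPM, and libraries of other ages and of LR reach both ends of this range.

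The tested tags were also counted by base composition, after the same filter. Among tested tags without a final run of 4 or more A, those with at most 4 G or C in the 17 bases were higher in finishing in 5.09% and higher in growing in 16.3%. Among those with 11 or more G or C it was 21.5% in finishing and 5.2% in growing. The 3 classes between followed the same order. Among all tags without overlap at a ratio of at least 2, 1082 of the 3400 higher in finishing and 1813 of the 3400 higher in growing reached the filter only where they were high. The shares by class are thus no evidence of a difference between the sides. Over all counts, the mean share of G and C was 42.5%, 45.7%, 46.8% and 46.5%, in order of age. The lists of named tags, with their GC medians of 52.9% and 26.5%, differ in the same direction as the shares by class. The part of base composition in their difference was not tested.

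**Figure D4:**
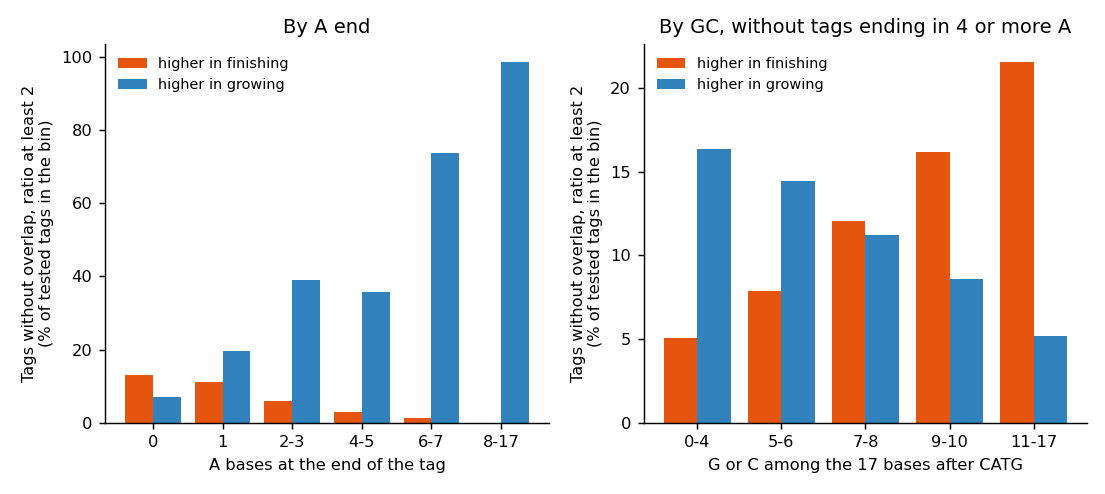
Share of tested tags, in percent of each class, that did not overlap between the sides and had a ratio of at least 2, by the number of A at the end of the tag (left) and, without tags ending in 4 or more A, by the number of G and C in the 17 bases after CATG (right). Orange bars are tags higher in finishing and blue bars tags higher in growing. The blue share is 39.1% in tags ending in 2 or 3 A, and the orange share goes from 5.09% to 21.5% with rising GC. The highest blue bar (8 or more A) holds tags of which most reached the low-count filter only in growing. That filter acted on the tags of every class, so the bars are no evidence of a direction.

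The most abundant tags are T1 to T10, the 10 with the highest mean level over the 4 libraries. They are shown because each fills a visible share of a library.
T1: CATGtaccatcaataaagtac
T2: CATGaagatcaagatcatcgc
T3: CATGtggaacgagcacctggg
T4: CATGcagaaggagatcaccgc
T5: CATGcttttctccactcaaag
T6: CATGaagtgcgacatcgatat
T7: CATGatccccgcccagaagta
T8: CATGcctactaagcggggagg
T9: CATGagcaaaaattcactttg
T10: CATGcccattgtacttgaact

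T1 was at 28048, 13546, 45238 and 26756 TPM, in order of age, so that its sides overlapped. T2 was at 25310, 18291, 21925 and 22115 TPM, in order of age, with a log2 fold change of -0.12 (SE 0.81). T4 was at 11898, 13047, 16718 and 16887 TPM and T5 at 11888, 13749, 15582 and 15255 TPM. T6 was at 8837, 12970, 17575 and 16091 TPM and T7 at 6218, 11057, 17610 and 16928 TPM. The sides of T4 to T7 did not overlap. These 4 tags were 1.20-fold to 2.00-fold higher in the finishing means, with adjusted p-values of 0.9 to 0.996 by edgeR.

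T3 and T9 differed most within the growing side. T3 was at 4332 TPM at 28 dpn and 26814 at 90 dpn, and at 17760 and 23905 TPM in finishing. T9 was at 24807, 5398, 2358 and 2331 TPM, in order of age. It was the only tag of the 10 with sides apart by more than 2-fold, 6.44-fold higher in growing (log2 fold change -2.82, SE 0.99, adjusted p 0.405 by edgeR and 0.0248 by DESeq2). Without the 28 dpn library its log2 fold change was -1.30. T9 was at 9714 TPM in LT at 2 dpn, and at 18003 and 2600 TPM in LR at 28 and 90 dpn. T10 was at 13937 TPM at 28 dpn and 3650, 5814 and 6725 TPM after it. T8 was at 7421 and 10546 TPM in growing and 19629 and 9214 TPM in finishing, where its sides overlapped.

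**Figure D5:**
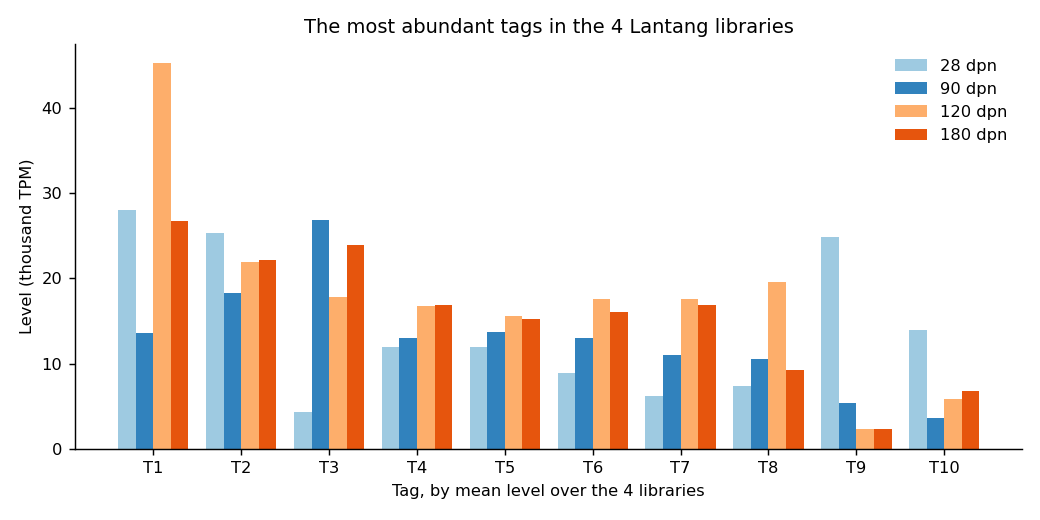
Level, in units of 1000 TPM from 0, of the 10 most abundant tags in the LT libraries of 28 and 90 dpn (blue) and of 120 and 180 dpn (orange). Each bar is 1 library of 3 pooled pigs, so no error bar is drawn. T9 is highest at 28 dpn (24807 TPM) and T3 lowest there (4332 TPM), while T4 to T7 are higher in both finishing libraries.

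A wider set of abundant tags was chosen after the values had been seen, those with a mean of at least 1000 TPM on the higher side, sides that did not overlap and a ratio of at least 2. It holds 20 tags higher in finishing and 16 higher in growing. The 20 summed to 1.27%, 1.68%, 3.85% and 3.68% of the library, in order of age. The 16 summed to 8.49%, 3.68%, 1.31% and 1.03%. The largest ratio was 3.58 among the former and 23.7 among the latter, and the adjusted p by edgeR was at least 0.622 and 0.263. Without the 28 dpn library, the ratio of 8 of the 15 other than T9, and that of T9, moved by over 1.5 times. Without the library of 90, 120 or 180 dpn, 9, 3 and 1 of the 15 moved so. Of the 20 higher in finishing, 6, 10, 2 and 1 moved so without 28, 90, 120 and 180 dpn.

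Of the 16, these 5 had ratios above 8, and they are shown for that reason.
CATGaaatactatttcctcaa
CATGgaatctaaccacgacca
CATGagcatcccaaacaaaca
CATGgtgggtatgggtcagaa
CATGtttggggagaagctcaa

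The first was at 19696, 1346, 442 and 446 TPM in order of age, 23.7-fold higher in growing. Its log2 fold change was -4.69 and, without the 28 dpn library, -1.70. It was at 4802 TPM in LT at 2 dpn and at 6762 and 567 TPM in LR at 28 and 90 dpn. The second was at 4366, 421, 133 and 174 TPM in order of age, and the third at 3153, 499, 151 and 110 TPM. The fourth was at 847, 3173, 226 and 182 TPM and the fifth at 3413, 5789, 747 and 376 TPM, both highest at 90 dpn. Their adjusted p-values by edgeR were 0.268, 0.278, 0.263, 0.267 and 0.281, and DESeq2 gave 0.000398, 0.00162, 0.00117, 0.00179 and 0.00211.

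A pair of the 16 shares sequence. The tag catgtCATGTAGGTTGTCTAA holds a further CATG at position 6, and its last 16 bases, in capitals, are the first 16 of CATGTAGGTTGTCTAAaaata. The former was at 1766, 1007, 389 and 261 TPM, in order of age, and the latter at 3224, 1535, 923 and 619 TPM. Both were lower at each later age, with ratios of 4.27 and 3.09 between the growing and the finishing means.

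Of the 20 tags higher in finishing, the most abundant was CATGctggatgctgagatccg, at 1410 and 3124 TPM at 28 and 90 dpn and at 6313 and 5122 TPM at 120 and 180 dpn. It was 2.52-fold higher in finishing (adjusted p 0.806 by edgeR). In the 5 prenatal LT libraries it lay between 0 and 227 TPM, and at 2 dpn at 912 TPM. CATGcctcaccaatacccagc was at 352, 1163, 3286 and 1931 TPM, in order of age, and CATGctgaacttgaagcctct at 304, 949, 2018 and 1919 TPM. The latter was at 0 to 81.7 TPM before birth, at 274 TPM in LT at 2 dpn, and at 491 and 730 TPM in LR at 28 and 90 dpn. CATGtagaagctgtgaatgcc, at 217, 683, 1367 and 1640 TPM, was higher at each later age, and it was at 0 to 109 TPM before birth.

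Some tags of this set were higher in newborn than in growing muscle. CATGttgaacatctccccctt was at 1471 and 1015 TPM in growing and 2119 and 3841 TPM in finishing, and at 4503 TPM in LT at 2 dpn and 1388 to 2694 TPM in the prenatal LT libraries. CATGccttcgagatcatccac was at 603, 560, 1279 and 2154 TPM, in order of age, and at 1936 TPM at 2 dpn. For these 2 tags the growing libraries were the lowest of the postnatal LT libraries.

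In 5 pairs of tags 1 base apart, 1 member was higher in finishing and the other in growing, both without overlap, with a ratio of at least 2 and at least 10 TPM on the higher side. They take 5 of the 1398 such tags higher in finishing (0.358%) and 5 of the 1422 higher in growing (0.352%). The pair with the highest levels is shown with the differing base in capitals.
higher in finishing: catgagacagacagttgctgG
higher in growing: catgagacagacagttgctgT

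The former was at 39.4, 49.1, 95.04 and 129 TPM in order of age and the latter at 1310, 403, 191 and 172 TPM. The share of the former in the pair was 2.92%, 10.9%, 33.2% and 42.9%. In a second pair, catgaaggctccAccgtcact was at 0.390, 0, 41.7 and 47.4 TPM and catgaaggctccGccgtcact at 527, 161, 156 and 130 TPM, a share of 0.0739%, 0%, 21.1% and 26.7% for the former. In 3 of the 5 pairs the sums of the pair overlapped between the sides. The source of these shifts within a pair was not tested.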

How the data were processed

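Per the labels and the methods of the study, poly(A) RNA on oligo(dT) beads was made into cDNA, cut with NlaIII and MmeI, amplified in 12 PCR cycles and sequenced on the Genome Analyzer. The authors removed adaptor, empty, low-quality and 1-copy tags and deposited the count of each clean tag, not normalized, and the same count as TPM. Bowtie 0.12.3 stands in the submitters' processing notes. TPM was recomputed here as count / library sum × 1000000, with 0 for an absent tag. Tests used the counts with edgeR 4.0.16 (quasi-likelihood, robust, TMM, filterByExpr, 2.76 CPM in 2 libraries, Benjamini-Hochberg, adjusted p below 0.05) in R 4.3.3, with 2 residual degrees of freedom, and DESeq2 1.42.0 as an alternative. The fit was run on simulated data with a smaller spread than that of these libraries, which cannot show what it is able to find in them. Ratios are of mean TPM. Levels and figures came from Python 3.11.15 (pandas 2.3.3, numpy 2.4.6, matplotlib 3.10.9, scipy 1.17.1). The named tags followed the rule given beside them (T tags: highest mean TPM). The members and lists were chosen with earlier results of these data known. Tests per gene and lists of marker genes were not run, because transcript sequences were not used here.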

Additional observations from a re-analysis of the deposited data

How the results depend on the processing

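With 1 library an age, the fit takes 2 ages as replicates, and its spread (square root of the common dispersion 0.546) limits what can be called. edgeR called 0 tags with total scaling, a minimum of 10 counts in 2 libraries, tags 1 base apart merged, LR of 28 and 90 dpn as a group of its own (smallest adjusted p 0.0797) and tags ending in 4 or more A left out, an alternative chosen after seeing the data. DESeq2 called 413, and edgeR without a filter 634 of 282962. With 1 library left out it called 11 to 5946. The counts with 1 library left out are no evidence of a difference, because a side with a single library has no spread of its own. Tags without overlap at a ratio of at least 2 numbered 3400 in each direction, and 1398 higher in finishing and 1422 in growing at a minimum of 10 TPM. With 1 library left out, added after seeing the data, they numbered 3588 to 8149 in finishing and 4283 to 5221 in growing, where fewer libraries have to be apart. TMM-scaled TPM gave 2650 and 3854. For the pairs 28 and 90 dpn, 120 and 180 dpn and the mean between the sides, r was 0.657, 0.944 and 0.803 without logs, Spearman's rho 0.282, 0.591 and 0.438, and r 0.636, 0.882 and 0.703 over tags of at least 5 TPM. The order of the 3 values was the same in each, and the mean between the sides was 0.773 to 0.799 with 1 library left out. The log2 fold changes of the named F and G tags kept their sign in the alternatives in which they were looked up, and 1 F tag had no value when tags were merged. They were not looked up without a filter, at a minimum of 10 counts, or with tags ending in A left out. Their choice by lack of overlap largely fixed the sign with 1 library left out, so the sign is no evidence of a stable difference. With 1 library left out, their ratio moved by over 1.5 times for 3 of 12 F tags (F3, F7 and F11) and 8 of 12 G tags (all but G7, G8, G10 and G11). F7 went from 2.80 to 1.54 without 180 dpn, and without 28 dpn G2 went from -5.52 to -4.43 and G12 from -4.57 to -2.86. Of the abundant tags chosen after seeing the data, 13 of 20 higher in finishing moved so, and T9 and 13 of the other 15 higher in growing. T2 changed sign with total scaling (0.014) and without 28 or 180 dpn, and T3, T8 and T10 with 1 library left out. With 1 library left out the log2 fold changes ran from -0.33 to 0.16 for T2, -0.48 to 2.12 for T3, -0.19 to 1.17 for T8 and -1.29 to 0.67 for T10. The cause was not tested. No paired analysis was possible because the labels give no replicate numbers. Alternatives for genes were not run, because tags were not matched to genes.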
